A study of Mus musculus with 9 samples.

Results

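The comparison described here sets E17.5 mouse pulmonary lymphatic endothelial cells (PLECs) against both neighbouring days of gestation, and asks which transcripts stood transiently high (a peak) or low (a trough) at E17.5. For every gene the mean of the 3 E17.5 samples was compared with the average of the E16.5 mean and the E18.5 mean. The comparison covered 14096 of the 25206 genes on the arrays, which were kept because they exceeded an array's own median on 1 or more of the 9 arrays, and it used all 9 samples of the series. The cells had been sorted from fetal lungs of C57BL/6N mice as CD45-/Epcam-/CD31+/Vegfr3+/Lyve1+/Pdpn+ cells. There were 3 samples from each of E17.5, E16.5 and E18.5. Each sample was a pool of lungs from 2 litters, with no treatment and no mutation, so that the p-values measure the spread between pools and not between single embryos. Values are log2 expression values on the scale of the arrays, on which a difference of 1 is a factor of 2, and levels of different genes cannot be ranked against each other.

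Lymphatic vessels clear fluid from the lung, and their endothelium matures in the last days before birth, when the alveolar epithelium flattens and begins to make surfactant. Endothelial cells make cholesterol from acetyl-CoA through the mevalonate pathway and also take it up from lipoproteins, and the transcription factor Srebf2 is the usual regulator of both routes. Notch receptors and their ligands pass signals between touching endothelial cells, and the basement membrane beneath them is built of laminins, collagen IV, nidogens and perlecan.

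The array medians lay between 3.79 and 3.91, and a mean below this range is close to background, where the size of a difference is uncertain. On the first principal component of all genes (22.4% of the variance) the E17.5 samples lay between -11.14 and 11.19, between the E16.5 samples at -93.83 to -83.11 and the E18.5 samples at 80.24 to 90.18. On the second component (17.54%) E17.5 sample 2 lay at 129.79, whereas the other 8 samples lay between -84.22 and 37.87. E17.5 sample 2 therefore stood apart from the other E17.5 samples. Counts of several lists and the differences of some genes are also given without it, and other named genes can still depend on it. *Pecam1*, which encodes CD31, was high in all samples and read 11.36, 11.16 and 11.42 at E17.5, against 11.24, 11.30 and 10.98 at E16.5 and 11.04, 11.13 and 11.21 at E18.5. *Prox1*, the transcription factor that sets lymphatic identity, read 5.24, 4.11 and 5.36 at E17.5, against 5.02 to 5.42 at E16.5 and 5.28 to 5.89 at E18.5. Its lowest value belonged to E17.5 sample 2.

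No gene passed an FDR q of 0.05 in the comparison of E17.5 with both flanking days (limma), and the smallest FDR q was 0.32. At an unadjusted p under 0.05, 490 genes (3.48%) were higher and 653 genes (4.63%) were lower at E17.5. The differences were small, with a median absolute difference of 0.12 against a median standard error of 0.14. Only 1 gene lay more than 1 log2 unit above the flanking days, whereas 49 lay more than 1 unit below them. Every gene named below therefore stands as a measured difference, and none as a called change. Where a gene is given as higher or lower, it was so at an unadjusted p under 0.05, and differences are given with their standard error from the fit (±). The FDR q of the 73 such genes lay between 0.319 and 0.616.

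A small p did not by itself mark a transient level. The smallest p of all belonged to *Rtkn2*, a small GTPase effector used as a marker of alveolar type I cells, which read 4.07, 3.78 and 3.64 at E17.5, against 3.87, 3.92 and 4.04 at E16.5 and 5.36, 5.64 and 5.44 at E18.5. The E17.5 and E16.5 values overlapped, and the difference of -0.88 ± 0.12 (FDR q = 0.32) came from the high E18.5 values. A stricter view asked for E17.5 to lie beyond each flanking day at an unadjusted p under 0.05. It left 81 peaks (0.575%) and 104 troughs (0.738%), with 0 at an FDR q under 0.05. The smallest value of the larger of both p-values was 0.00059 and belonged to *Moxd1*. All 3 E17.5 samples lay above all 6 flanking samples for 165 genes (1.17%) and below them for 111 genes (0.787%). Among these genes the troughs were deeper than the peaks were high, as 12 genes lay at least 0.5 log2 units above and 46 at least 0.5 units below the flanking days. The E17.5 mean was the highest of the 3 day means for 3608 genes (25.6%) and the lowest for 3297 genes (23.4%), and it lay between the other means for all other genes. Left-out samples moved the counts. The count of higher genes was 286 without E17.5 sample 2 and 738 without E18.5 sample 3, and the count of lower genes was 411 without E17.5 sample 3. The number of peaks was 47 without E16.5 sample 3, 48 without E18.5 sample 1, 128 without E18.5 sample 3 and 164 without E17.5 sample 1. The number of troughs was 53 without E16.5 sample 3, 198 without E16.5 sample 1 and 204 without E17.5 sample 1.

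**Figure D1:**
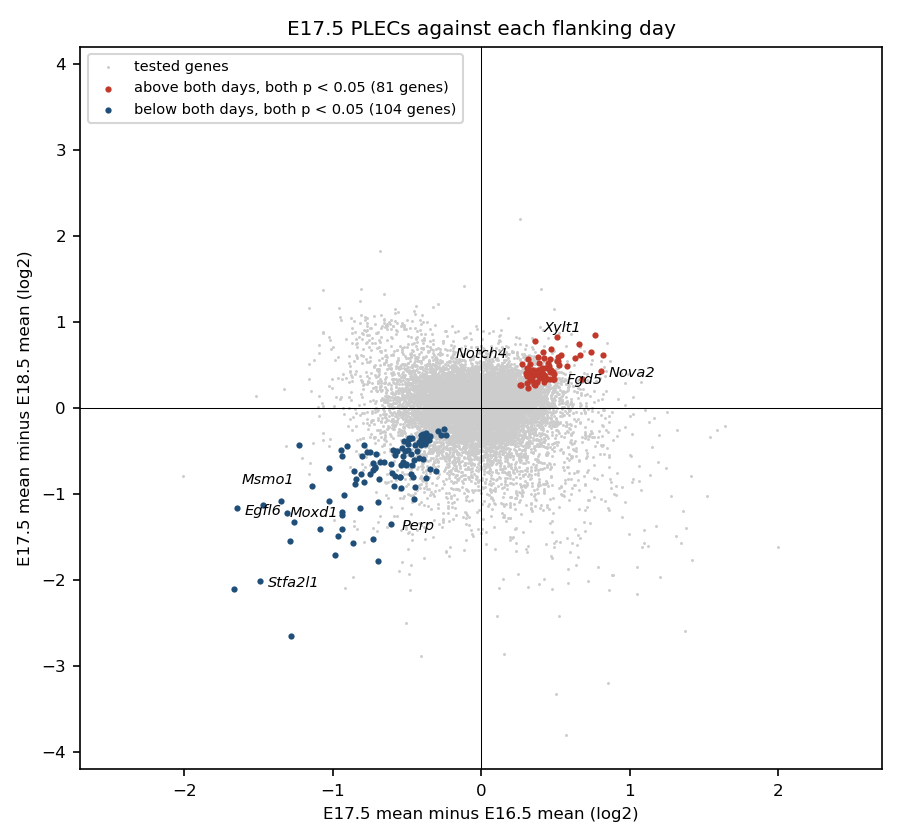
Each point is 1 of the 14096 tested genes, with the E17.5 mean minus the E16.5 mean on the x axis and the E17.5 mean minus the E18.5 mean on the y axis (log2). Red points (81) lie above both days and blue points (104) below both days at an unadjusted p under 0.05 each, and the blue points reach much farther from the centre than the red ones.

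Genes with all E17.5 samples above all flanking samples are described here where they also had an unadjusted p under 0.05, an E17.5 mean above the array medians and a symbol of none of the clone, predicted, small RNA or chemosensory receptor kinds. The 10 with the largest differences under these limits included several genes known from endothelium. *Xylt1*, the xylosyltransferase that starts glycosaminoglycan chains on proteoglycans, read 6.50, 6.43 and 6.27 at E17.5, against 5.99, 6.06 and 6.07 at E16.5 and 5.49, 5.56 and 5.81 at E18.5. All E17.5 samples stood above all others, and the difference of 0.57 ± 0.10 had the smallest p among these genes (FDR q = 0.43). *Fgd5*, a Cdc42 exchange factor of endothelial cells, read 7.69, 7.69 and 7.66 at E17.5, against 7.22, 7.32 and 6.94 at E16.5 and 7.0, 7.27 and 7.29 at E18.5. Its E17.5 samples agreed closely and lay 0.51 ± 0.11 above the flanking days (FDR q = 0.43). *Nova2*, an RNA-binding splicing regulator of neurons and endothelium, read 8.02, 8.32 and 8.18 at E17.5, against 7.50, 7.36 and 7.26 at E16.5 and 7.32, 7.98 and 7.92 at E18.5. The lowest E17.5 value lay just above the highest E18.5 value, and the difference was 0.62 ± 0.15 (FDR q = 0.47).

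*Slco2b1*, an organic anion transporter, had the largest of these differences among the genes named by rule, with 6.23, 6.35 and 6.22 at E17.5, against 6.08, 5.71 and 5.49 at E16.5 and 5.18, 5.38 and 5.77 at E18.5 (difference 0.67 ± 0.16, FDR q = 0.47). *Esm1*, a proteoglycan secreted by endothelial tip cells, read 6.47, 6.50 and 6.38 at E17.5, against 6.29, 5.90 and 5.91 at E16.5 and 4.83, 5.81 and 5.98 at E18.5. Its difference of 0.66 ± 0.23 (FDR q = 0.53) leaned on the low first E18.5 sample. *Smad1*, which carries BMP signals to the nucleus, read 8.20, 8.39 and 8.29 at E17.5, against 8.08, 7.63 and 7.62 at E16.5 and 7.32, 8.08 and 8.08 at E18.5, a difference of 0.49 ± 0.18 (FDR q = 0.56). *Card10*, a scaffold protein on the route to NF-kB, *Cdyl2*, a chromodomain protein, *Slfn8*, a Schlafen family member, and *Slc16a11*, of the monocarboxylate transporter family, completed these 10 genes, at 0.61, 0.54, 0.55 and 0.50. Without E17.5 sample 2 *Cdyl2* lay 0.33 above the flanking days, which did not pass an unadjusted p of 0.05. Among those with the smallest p was also *Arhgef2*, a guanine nucleotide exchange factor bound to microtubules, at 8.52, 8.81 and 8.68 at E17.5, against 8.28, 8.24 and 8.05 at E16.5 and 8.10, 8.31 and 8.34 at E18.5 (difference 0.45 ± 0.11, FDR q = 0.47). All these differences were under 1 log2 unit, and *Esm1*, *Smad1* and *Slfn8* did not pass an unadjusted p of 0.05 against one of the flanking days and are not among the 81 peaks.

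**Figure D2:**
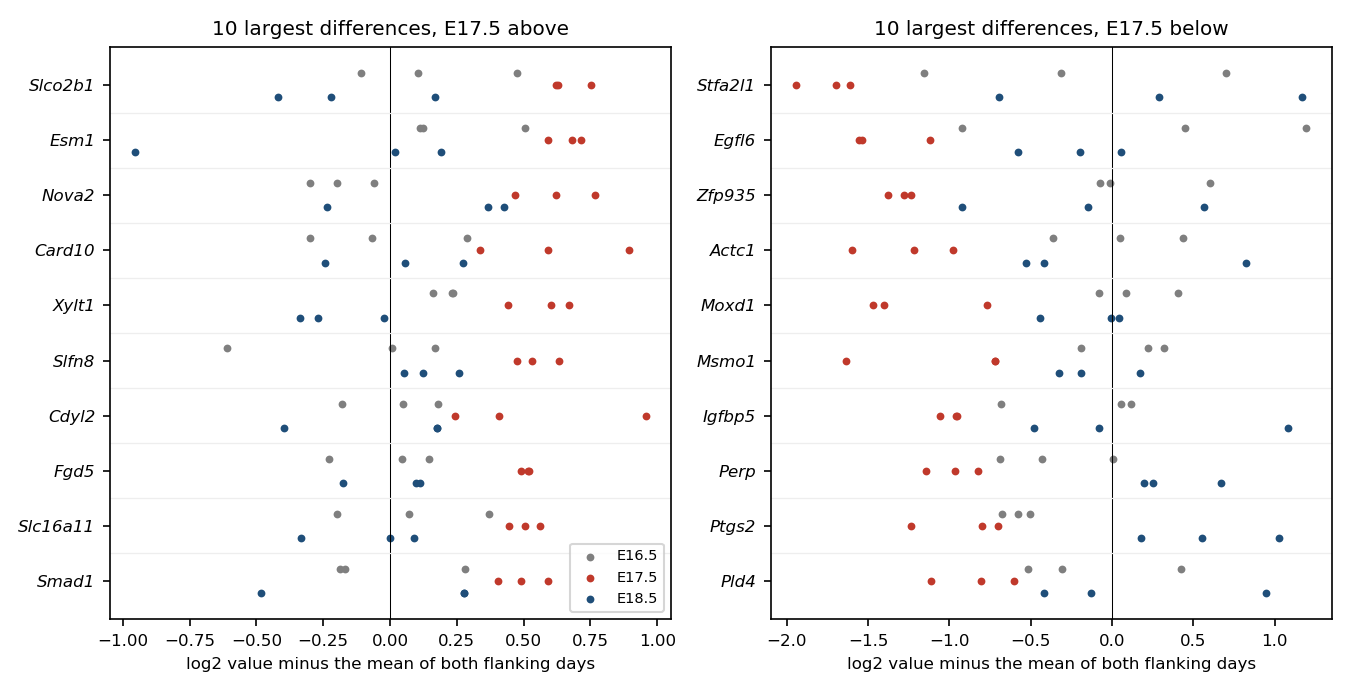
Log2 values of single samples, minus the average of the E16.5 and E18.5 means, for the 10 named genes with the largest differences above (left) and below (right) all flanking samples, within the limits on p, level and symbol. Red E17.5 points lie right of all grey (E16.5) and blue (E18.5) points on the left and left of all of them on the right, and the x axis of the right panel spans a wider range.

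Among genes with all E17.5 samples below all flanking samples, chosen under the same limits but with the flanking mean above the array medians, the largest differences went beyond 1 log2 unit, but some E17.5 values were near background. *Stfa2l1*, of the stefin family of cysteine protease inhibitors, read 2.90, 2.57 and 2.81 at E17.5, against 3.35, 4.19 and 5.21 at E16.5 and 5.68, 4.80 and 3.82 at E18.5. The flanking samples were spread over more than 2 log2 units, and the difference was -1.75 ± 0.43 (FDR q = 0.47). *Zfp935*, a zinc finger gene, and *Actc1*, the cardiac actin, averaged 3.03 and 2.68 at E17.5, which is below the array medians, against 4.33 and 3.95 over the flanking days. *Moxd1*, a relative of dopamine beta-hydroxylase, read 3.63, 3.56 and 4.26 at E17.5, against 5.44, 4.95 and 5.12 at E16.5 and 5.07, 5.02 and 4.59 at E18.5. It was low at E17.5 against each day, with differences of -1.35 from E16.5 and -1.08 from E18.5, and the difference from both was -1.21 ± 0.19 (FDR q = 0.37). *Egfl6*, a secreted EGF repeat protein, read 5.07, 4.63 and 4.65 at E17.5, against 5.27, 7.39 and 6.64 at E16.5 and 6.24, 5.99 and 5.61 at E18.5, a difference of -1.41 ± 0.38 (FDR q = 0.47).

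*Perp*, a p53 target found in desmosomes, read 3.68, 4.0 and 3.86 at E17.5, against 4.13, 4.39 and 4.83 at E16.5 and 5.02, 5.49 and 5.07 at E18.5 (difference -0.98 ± 0.17, FDR q = 0.43). *Ptgs2*, the inducible prostaglandin synthase, read 7.27, 6.73 and 7.16 at E17.5, against 7.46, 7.39 and 7.29 at E16.5 and 8.15, 8.99 and 8.52 at E18.5. Its E17.5 and E16.5 values nearly touched, and it lay -0.33 from E16.5, which did not pass an unadjusted p of 0.05, and -1.50 from E18.5. *Ptn*, the growth factor pleiotrophin, showed the opposite balance, with 3.77, 4.05 and 4.07 at E17.5, against 5.35, 5.19 and 5.03 at E16.5 and 4.68, 4.21 and 4.29 at E18.5. It differed by -1.23 from E16.5 and -0.43 from E18.5, for a difference of -0.83 ± 0.13 from both (FDR q = 0.40). *Igfbp5*, an IGF-binding protein, and *Pld4*, of the phospholipase D family, differed by -0.99 ± 0.31 and -0.84 ± 0.30 from the flanking days.

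Many genes of cholesterol synthesis and uptake were low at E17.5, more against E16.5 than against E18.5. Of 35 genes on this list 34 were tested, and 17 of them were lower at an unadjusted p under 0.05, against 4.63% of all tested genes, while 0 were higher. The median difference of the 34 genes was -0.24, against -0.0017 over all tested genes. It was -0.29 from E16.5 alone and -0.07 from E18.5 alone. The difference from the flanking days was positive for 13 of the 34, and the E17.5 mean was the highest for 6 and the lowest for 20. Low levels at E17.5 were one of the patterns by which the study had described these samples, so the direction of this list is not independent evidence. The mean of the list, as the deviation from each gene's mean over 9 samples, was -0.08, -0.20 and -0.16 at E17.5, against 0.10, 0.16 and 0.19 at E16.5 and 0.06, -0.06 and 0.002 at E18.5. The E17.5 samples lay below all flanking samples, with E17.5 sample 1 close to E18.5 sample 2. Without E17.5 sample 2 the count of lower members was 11, and over all left-out samples it lay between 11 and 16.

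The 4 members whose E17.5 samples lay below all flanking samples were *Msmo1*, *Sc5d*, *Hmgcs1* and *Soat1*. *Hmgcs1*, which makes HMG-CoA at the head of the pathway, read 6.87, 6.26 and 6.81 at E17.5, against 7.19, 7.64 and 7.49 at E16.5 and 7.08, 7.08 and 7.08 at E18.5 (difference -0.61 ± 0.15, FDR q = 0.47). *Msmo1*, which removes methyl groups from lanosterol derivatives, read 5.09, 4.17 and 5.09 at E17.5, against 5.62, 6.13 and 6.03 at E16.5 and 5.98, 5.48 and 5.62 at E18.5. Its difference was -1.03 ± 0.22 (FDR q = 0.43), and E17.5 sample 2 was the lowest. *Sc5d*, a late desaturase of the sterol ring, read 5.54, 4.71 and 5.49 at E17.5, against 5.81, 6.08 and 6.01 at E16.5 and 6.08, 5.90 and 5.81 at E18.5 (difference -0.70 ± 0.18, FDR q = 0.47). *Soat1*, which esterifies cholesterol for storage, had the tightest values, with 5.89, 5.81 and 5.78 at E17.5, against 6.27, 6.44 and 6.39 at E16.5 and 6.51, 6.29 and 6.65 at E18.5. It differed by -0.54 from E16.5, by -0.66 from E18.5 and by -0.60 ± 0.10 from both (FDR q = 0.43).

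The stretches before the starts of these genes are shown here, and each held the letters CCAAT. The sequences are the 180 bases before the RefSeq start of each gene on build GRCm38.p6, 5′ to 3′ along the gene's strand. Capitals mark the letters CCAAT and the sterol element TCACNCCAC, with N any base, each searched on both strands, so that CCAAT on the other strand reads ATTGG. The motifs do not overlap each other here.
Msmo1, minus strand, chr8:64733579-64733758: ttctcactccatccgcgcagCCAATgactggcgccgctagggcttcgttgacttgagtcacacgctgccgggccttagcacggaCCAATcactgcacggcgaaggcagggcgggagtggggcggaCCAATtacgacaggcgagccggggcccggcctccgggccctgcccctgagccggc
Sc5d, minus strand, chr9:42264301-42264480: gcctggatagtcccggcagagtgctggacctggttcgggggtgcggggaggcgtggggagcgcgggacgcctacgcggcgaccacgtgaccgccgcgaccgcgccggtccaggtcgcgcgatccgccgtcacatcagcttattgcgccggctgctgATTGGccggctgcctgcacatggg
Hmgcs1, plus strand, chr13:119690171-119690350: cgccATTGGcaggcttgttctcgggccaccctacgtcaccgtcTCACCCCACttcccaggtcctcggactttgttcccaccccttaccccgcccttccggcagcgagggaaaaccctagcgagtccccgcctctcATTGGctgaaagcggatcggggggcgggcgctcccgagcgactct
Soat1, minus strand, chr1:156474329-156474508: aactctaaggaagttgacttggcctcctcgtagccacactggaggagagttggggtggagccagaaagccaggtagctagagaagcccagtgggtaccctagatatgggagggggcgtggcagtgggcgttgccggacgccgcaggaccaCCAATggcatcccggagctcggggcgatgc

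The *Hmgcs1* stretch holds 1 match to the sterol element, which begins 137 bases before the start, and 2 CCAAT boxes, whereas *Msmo1* holds 3 CCAAT boxes, *Sc5d* 1 and *Soat1* 1, each with no match to the sterol element. Windows from 250 bases before to 50 bases after the start were at hand for 25 of the 34 tested members. Of these 25 genes 19 (76.0%) held CCAAT in at least 1 window, against 41.1% of all 27025 genes with windows, and 1 (4.0%) held the sterol element, against 1.44% of all genes. Of the 17 members with an unadjusted p under 0.05, 12 had windows, and all 12 held CCAAT. These members were picked by the same E17.5 values, and whether CCAAT had a part in their levels was not tested. A match says only that the letters are there, and no binding was measured.

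Members of the pathway differed in how their E18.5 levels compared with E17.5. *Cyp51*, which demethylates lanosterol, read 5.28, 4.80 and 4.92 at E17.5, against 5.98, 6.48 and 6.48 at E16.5 and 5.48, 5.70 and 5.13 at E18.5. Its E17.5 and E18.5 values overlapped, and it differed by -1.31 from E16.5 and by -0.44 from E18.5, the second not past an unadjusted p of 0.05, for a difference of -0.88 ± 0.17 (FDR q = 0.43). *Fdft1*, squalene synthase, differed by -0.58 ± 0.15 from the flanking days, and *Insig1*, which holds back sterol-driven activation of the pathway, by -0.51 ± 0.16. *Dhcr7*, the last step to cholesterol, read 5.19, 5.34 and 5.49 at E17.5, against 6.18, 6.02 and 6.22 at E16.5 and 5.39, 4.90 and 5.04 at E18.5, so that its difference of -0.28 lay against E16.5 alone, with E18.5 overlapping E17.5. Of the 17 lower members 14 were also below E16.5 and 8 below E18.5 at an unadjusted p under 0.05, and 5 were below both. *Srebf2* read 7.48, 7.63 and 7.60 at E17.5, against 7.46, 7.57 and 7.63 at E16.5 and 7.50, 7.14 and 7.42 at E18.5 (difference 0.12, not past an unadjusted p of 0.05). Its values overlapped on all days. *Abca1* and *Abcg1*, which export cholesterol, had differences of 0.14 and 0.20, neither past an unadjusted p of 0.05.

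**Figure D3:**
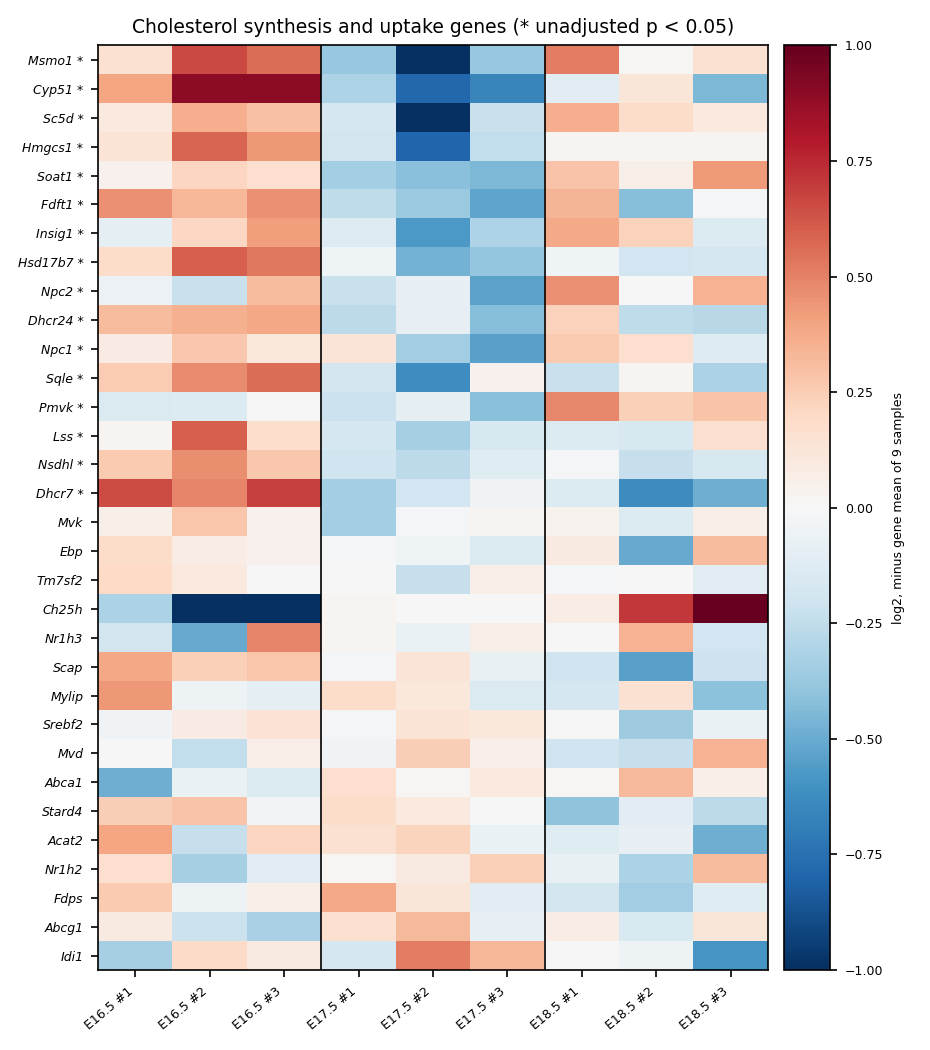
Log2 values of 32 of the 34 tested cholesterol genes (rows) in the 9 samples (columns), minus each gene's mean over the 9 samples, with the lowest difference at the top and a star at an unadjusted p under 0.05. The upper rows are blue in the E17.5 columns and red at E16.5, and their colours at E18.5 differ from row to row.

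Fatty acid synthesis and lysosome genes showed fewer low members. Of 19 tested fatty acid synthesis genes 4 were lower and 0 higher at an unadjusted p under 0.05, with a median of -0.15. Over all tested genes 4.63% were lower and 3.48% higher. *Scd2*, a stearoyl-CoA desaturase, read 8.42, 8.05 and 8.15 at E17.5, against 8.53, 8.73 and 8.58 at E16.5 and 8.88, 8.54 and 8.50 at E18.5, with all E17.5 samples below all others (difference -0.42 ± 0.12, FDR q = 0.5). *Scd1*, its sister gene, was no trough, as it read 4.80, 3.31 and 3.40 at E17.5, against 3.01 to 3.29 at E16.5 and 5.75 to 6.02 at E18.5. Of 34 lysosome and autophagy genes 9 were lower and 0 higher, with a median of -0.11, against the same shares of all tested genes. Of these 9 genes 7 were also below E18.5 and 4 below E16.5 at an unadjusted p under 0.05, and 2 were below both. *Asah1*, acid ceramidase, read 6.66, 6.61 and 6.68 at E17.5, against 7.03, 6.90 and 7.13 at E16.5 and 7.06, 7.11 and 6.92 at E18.5 (difference -0.38 ± 0.09, FDR q = 0.47). Its E17.5 samples were below all flanking samples. *Npc1* and *Npc2*, which move cholesterol out of lysosomes, stand on the lysosome and the cholesterol list and differed by -0.38 and -0.42 from the flanking days. The fatty acid count was 2 without E16.5 sample 2 or 3, E17.5 sample 3 or E18.5 sample 2, and the lysosome count was 5 without E17.5 sample 2.

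Epithelial markers were mostly lower at E17.5 than the average of the flanking days, with their high levels at E18.5. The alveolar type I list includes *Pdpn*, which is also a sort marker and is counted among its lower genes. Of 16 alveolar type I genes 11 were lower, of 15 alveolar type II genes 11 and of 18 airway and general epithelial genes 10, with 0 higher in each list and medians of -0.59, -1.13 and -0.63. Over all tested genes 4.63% were lower and 3.48% higher. Most of these stood apart from E18.5 and few from E16.5. The median difference of the type I genes was 0.11 from E16.5 and -1.37 from E18.5, and 5 of the 16 had their lowest mean at E17.5. For the type II genes these medians were -0.48 and -1.57, and for the airway genes -0.30 and -0.93. The mean was lowest at E17.5 for 9 of the 15 type II and 12 of the 18 airway genes, against 23.4% of all tested genes. All 11 type I genes were below E18.5 at an unadjusted p under 0.05 and 1 below E16.5, and these numbers were 10 and 2 for type II and 8 and 3 for airway genes. The list mean of the type II genes was -0.12, -0.88 and -0.96 at E17.5, against -0.89, -0.14 and -0.04 at E16.5 and 1.13, 0.86 and 1.04 at E18.5. E16.5 sample 1 was thus as low as the lower E17.5 samples, and E17.5 sample 1 as high as the higher E16.5 samples. The part of such cells in the low cholesterol and lysosome values was not tested. In pooled sorted cells, fewer cells of a type and less RNA per cell cannot be told apart.

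*Sftpc*, a surfactant protein used here as a marker of alveolar type II cells, read 9.80, 9.73 and 9.07 at E17.5, against 9.28, 10.77 and 11.17 at E16.5 and a mean of 11.10 ± 0.14 (SD) at E18.5 (difference -1.22 ± 0.36, FDR q = 0.5). *Lamp3*, a lamellar body protein, read 4.61, 3.20 and 2.83 at E17.5, against 3.76, 5.25 and 5.46 at E16.5 and 6.41, 6.01 and 6.17 at E18.5, the largest absolute difference among the tested members of all lists (-1.97 ± 0.43, FDR q = 0.43). Its E17.5 mean of 3.55 lay below the array medians, where the size of a difference is uncertain, and its E17.5 and E16.5 values overlapped. *Cdh1*, E-cadherin, read 5.99, 5.71 and 4.93 at E17.5, against 5.79, 6.84 and 7.26 at E16.5 and 6.85, 6.90 and 7.10 at E18.5 (difference -1.25 ± 0.31, FDR q = 0.47). *Epcam*, which was gated out, read 4.72, 5.06 and 4.56 at E17.5, against 4.71, 6.07 and 5.89 at E16.5 and 5.14, 5.41 and 5.50 at E18.5 (difference -0.67 ± 0.27, FDR q = 0.59). The airway count was 3 without E17.5 sample 3, 4 without E16.5 sample 3 or E18.5 sample 3 and 5 without E16.5 sample 2, and the type I count was 7 without E17.5 sample 3. *Lamb3* and *Lama3*, laminin chains of epithelial basement membranes, were also lower, at -0.74 and -0.69.

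Fewer fibroblast and leukocyte markers than epithelial markers were lower at an unadjusted p under 0.05, but many had their lowest mean at E17.5. This held for 11 of 21 fibroblast genes and 14 of 16 macrophage and leukocyte genes, against 23.4% of all tested genes. Of 21 fibroblast genes 3 were lower and 0 higher, with a median of -0.25, and of 16 macrophage and leukocyte genes 3 were lower and 0 higher, with a median of -0.49, against 4.63% lower and 3.48% higher of all tested genes. The 3 lower genes of each list were below E18.5 at an unadjusted p under 0.05, and 0 were so below E16.5. The leukocyte list mean was -0.45, -0.17 and 0.45 at E16.5, against -0.43, -0.26 and -0.35 at E17.5. E16.5 sample 1 lay below the E17.5 mean for 15 of the 21 fibroblast and 11 of the 16 leukocyte genes. This was so for 6395 of all 14096 tested genes. *Inmt*, a methyltransferase of lung fibroblasts, read 4.14, 4.02 and 3.64 at E17.5, against 3.57, 3.03 and 3.68 at E16.5 and 7.41, 7.59 and 6.79 at E18.5, so that its difference of -1.41 came with a high E18.5 level and no trough. *Cd14*, the endotoxin co-receptor of myeloid cells, read 4.91, 5.50 and 5.09 at E17.5, against 4.62, 5.12 and 7.19 at E16.5 and 7.45, 7.02 and 6.52 at E18.5 (difference -1.15 ± 0.48, FDR q = 0.59). The leukocyte count was 0 without E17.5 sample 3, 1 without E16.5 sample 3, E17.5 sample 1 or E17.5 sample 2 and 7 without E18.5 sample 3, and the fibroblast count was 1 without E17.5 sample 2 or 3, 5 without E16.5 sample 1 and 12 without E18.5 sample 3. *Ptprc*, which encodes CD45, stayed between 2.16 and 3.93 in the 9 samples, near or below the array medians. Of 17 smooth muscle and pericyte, 19 platelet and megakaryocyte and 15 erythroid genes, 0 were lower and 0 higher. Over all tested genes these shares were 4.63% and 3.48%. Without E18.5 sample 3 the lower counts of these lists were 2, 11 and 2.

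**Figure D4:**
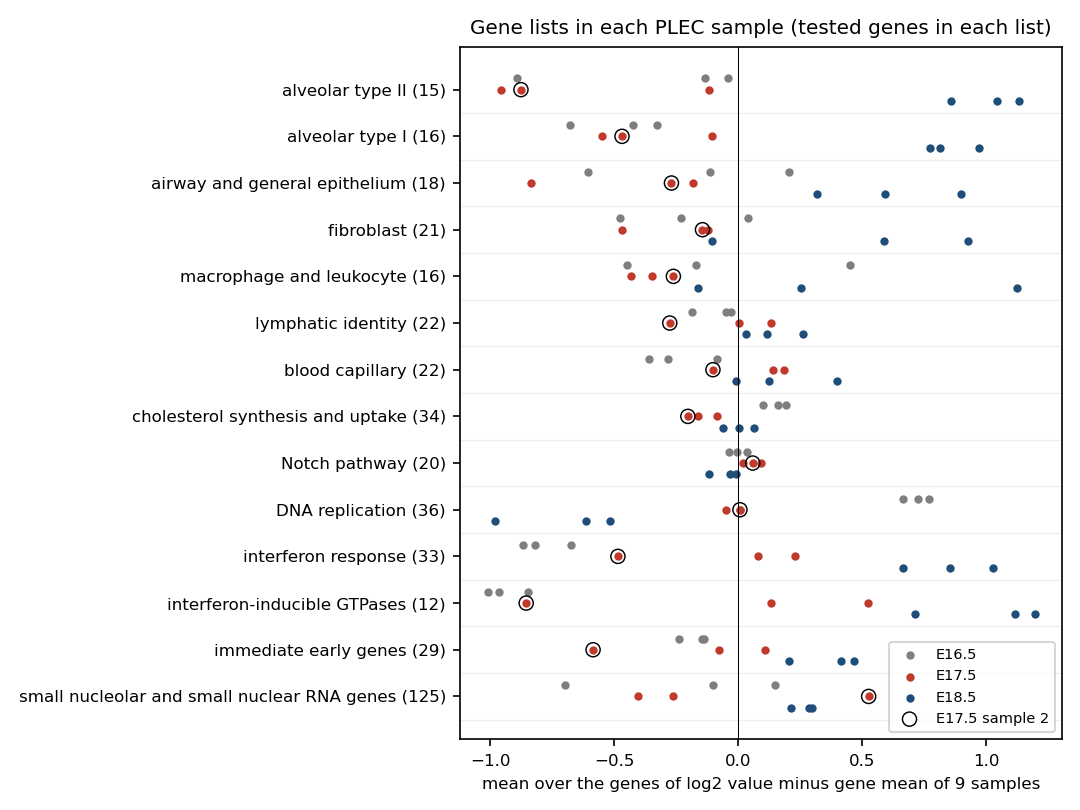
Mean over the tested genes of a list (number in brackets) of the log2 value minus each gene's mean over the 9 samples, with 1 point per sample and E17.5 sample 2 circled. Among these lists the E17.5 points lie below all flanking points only for the cholesterol list, and E17.5 sample 2 lies closest of the E17.5 points to the E16.5 points for both interferon lists.

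On the Notch list more members were higher than lower. Of 20 tested members 6 were higher and 1 was lower at an unadjusted p under 0.05, against 3.48% and 4.63% of all tested genes, with a median of 0.16. The difference was negative for 7 of the 20. The E17.5 mean was the highest for 12 and the lowest for 6, against 25.6% and 23.4% of all tested genes. Of the 6 higher members 3 were also above E16.5 and 5 above E18.5 at an unadjusted p under 0.05, and 2 were above both. The list mean was 0.09, 0.06 and 0.02 at E17.5, and E16.5 sample 1 overlapped it at 0.04. *Notch4*, a receptor largely confined to endothelium, read 7.95, 7.93 and 8.05 at E17.5, against 7.63, 7.69 and 7.62 at E16.5 and 7.36, 7.37 and 7.68 at E18.5. All E17.5 samples stood above all others, and it was above E16.5 by 0.33 and above E18.5 by 0.51. The ligand *Dll4* read 9.58, 9.51 and 9.21 at E17.5, against 9.31, 9.03 and 8.80 at E16.5 and 8.83, 9.18 and 9.0 at E18.5, with 1 overlapping pair of samples (difference 0.41 ± 0.14, FDR q = 0.53). The ligand *Jag2* read 7.55, 7.35 and 7.43 at E17.5, against 7.19, 7.21 and 7.21 at E16.5 and 7.18, 6.62 and 7.21 at E18.5 (difference 0.34 ± 0.14, FDR q = 0.59). *Lfng*, which adds sugars to Notch, *Hes1*, a Notch target, and *Notch1* lay 0.50, 0.34 and 0.30 above the flanking days. Without E17.5 sample 2 *Lfng* lay 0.27 above them, which did not pass an unadjusted p of 0.05. The lower member was *Dlk1*, a non-canonical ligand, at -0.73. The count of higher members was 3 without any 1 of the E17.5 samples and 4 without any 1 of the E16.5 samples, and the count of lower members was 0 without E17.5 sample 3 and 3 without E16.5 sample 1 or E18.5 sample 3.

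The basement membrane list divided by chain. Of 21 tested members 7 were higher and 5 were lower, against 3.48% and 4.63% of all tested genes. Of the 7 higher members 2 were also above E16.5 and 5 above E18.5 at the same limit on the unadjusted p, and 0 were above both. Of the 5 lower members 1 was also below E16.5 and 5 below E18.5, and 1 was below both. *Hspg2*, perlecan, read 9.25, 9.37 and 9.30 at E17.5, against 9.05, 9.37 and 9.10 at E16.5 and 8.44, 8.24 and 8.52 at E18.5 (difference 0.52 ± 0.11, FDR q = 0.43), with overlapping E17.5 and E16.5 values and lower values at E18.5. *Col4a1* and *Col4a2*, the main collagen IV chains of vessels, read 10.29, 10.60 and 10.45, and 9.67, 10.06 and 9.95 at E17.5, against 9.86 to 9.92 and 9.14 to 9.33 at E16.5 and 10.05 to 10.53 and 9.50 to 9.96 at E18.5. Both were above E16.5 and overlapped E18.5, with differences of 0.38 and 0.41. *Lamb1* read 9.05, 9.20 and 9.17 at E17.5, against 8.83, 8.99 and 8.97 at E16.5 and 8.69, 8.74 and 8.77 at E18.5, above every flanking sample (difference 0.31 ± 0.09, FDR q = 0.5). *Nid2*, nidogen 2, *Col15a1* and *Lama1* lay 0.45, 0.40 and 0.89 above the flanking days. *Lama1* read 6.11, 6.96 and 6.44 at E17.5, against 6.10, 6.11 and 6.09 at E16.5 and 4.02, 5.58 and 5.76 at E18.5. Its E17.5 and E16.5 values overlapped, and it did not pass the limit on the unadjusted p against E16.5 alone. Without E17.5 sample 2 *Lama1* did not pass that limit against the flanking days either. The lower members included *Lamb3* and *Lama3*, given above, and *Col4a3* and *Col4a5*, at -0.34 and -0.26. Without E17.5 sample 2 there were 4 higher and 3 lower members, and without E17.5 sample 3 there were 2 lower members.

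**Figure D5:**
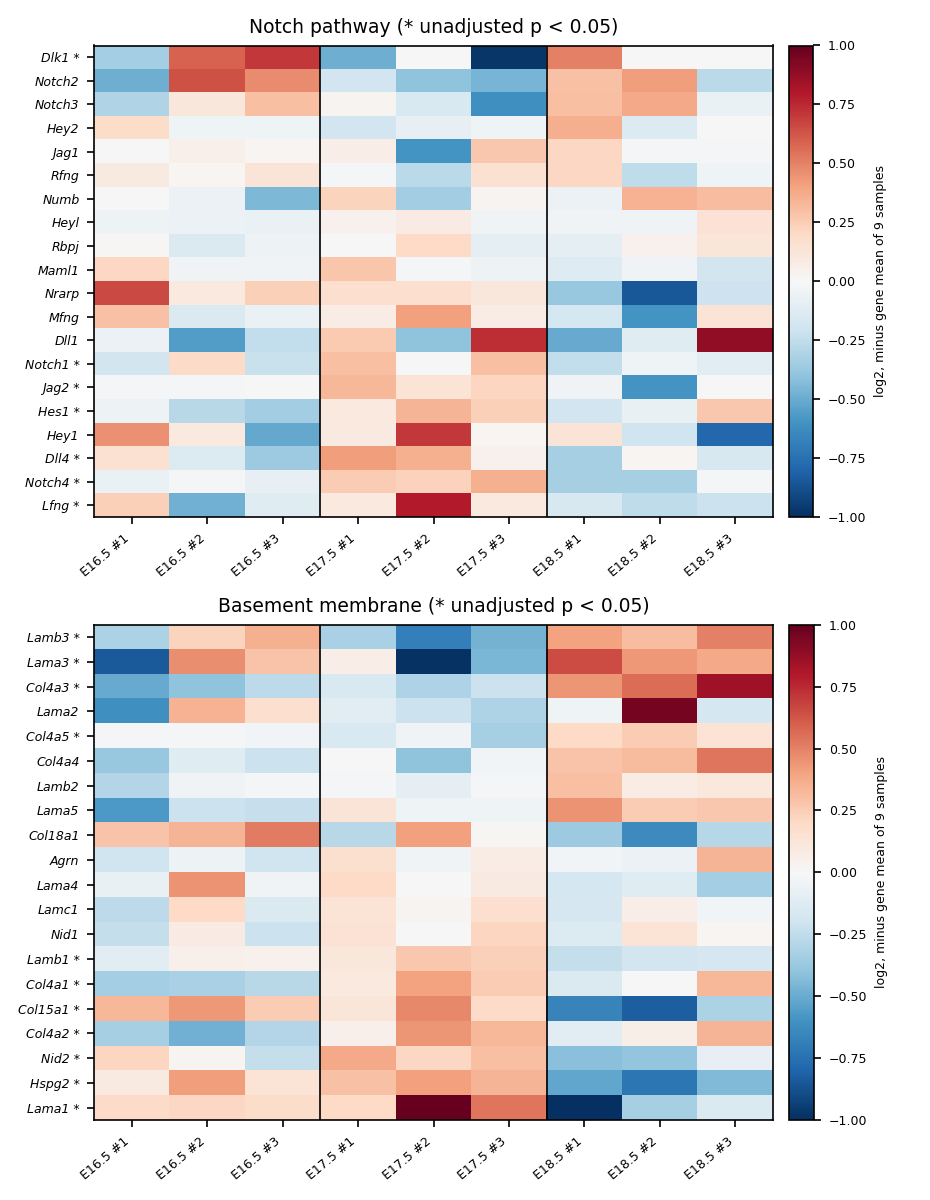
Log2 values of the 20 Notch pathway genes (top) and 20 of the 21 basement membrane genes (bottom) in the 9 samples, minus each gene's mean over the samples, with a star at an unadjusted p under 0.05. The lower rows of both panels are red in the E17.5 columns, and the top rows of the basement membrane panel are red at E18.5.

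Of 22 lymphatic identity genes 4 were higher and 1 was lower, against 3.48% and 4.63% of all tested genes, with a median of -0.12. *Flt4*, which encodes the sort marker Vegfr3, read 8.34, 8.60 and 8.62 at E17.5, against 8.30, 8.30 and 8.06 at E16.5 and 7.90, 8.34 and 8.30 at E18.5 (difference 0.32 ± 0.13, FDR q = 0.59). Its lowest E17.5 value lay within 0.01 of the highest E18.5 value. *Sox18*, a transcription factor upstream of *Prox1*, read 8.74, 9.59 and 8.84 at E17.5, against 9.17, 8.36 and 7.98 at E16.5 and 7.71, 8.20 and 8.36 at E18.5 (difference 0.76 ± 0.28, FDR q = 0.56), with its highest value in E17.5 sample 2. *Stab2*, a hyaluronan receptor, was 0.65 above the flanking days, but its E17.5 level overlapped E16.5, with 6.43, 6.43 and 6.78 at E17.5, against 6.43, 7.08 and 6.48 at E16.5 and 4.88, 5.04 and 5.46 at E18.5. *Pdpn*, a sort marker that alveolar type I cells also make, was the lower member, at 6.11, 6.03 and 5.68 at E17.5, against 5.46 to 5.95 at E16.5 and 6.81 to 7.69 at E18.5. *Emcn*, of blood endothelium, read 10.87, 10.39 and 10.85 at E17.5, against 10.80, 10.94 and 10.48 at E16.5 and 10.52, 10.45 and 10.31 at E18.5, with overlapping values. The count of higher identity genes was 2 without E16.5 sample 3, E17.5 sample 2 or 3 or E18.5 sample 1, and the count of lower ones was 2 without E16.5 sample 1 or 2, 3 without E17.5 sample 1 or E18.5 sample 1, 4 without E17.5 sample 3 and 6 without E18.5 sample 3.

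Of 22 blood capillary genes 2 were higher and 0 lower, namely *Esm1* and *Flt1*, against 3.48% and 4.63% of all tested genes. *Flt1*, a receptor and decoy for VEGF, read 8.98, 8.85 and 8.76 at E17.5, against 8.65, 8.72 and 8.43 at E16.5 and 8.08, 8.53 and 8.69 at E18.5 (difference 0.35 ± 0.14, FDR q = 0.59). Of 16 arterial and venous genes 3 were higher and 0 lower (3.48% and 4.63% of all tested genes), with a median of -0.0073. *Ephb4*, the receptor of veins and lymphatic valves, read 7.69, 7.98 and 7.84 at E17.5, against 7.60, 7.32 and 7.33 at E16.5 and 7.50, 7.51 and 7.60 at E18.5, and lay above all flanking samples and above each day (by 0.42 and 0.30). *Unc5b*, a netrin receptor, and *Plxnd1*, a semaphorin receptor, were both 0.43 above the flanking days, and *Plxnd1* read 9.53, 9.78 and 9.73 at E17.5, against 9.46 to 9.69 at E16.5 and 8.81 to 9.13 at E18.5. Without E17.5 sample 2 *Unc5b* did not pass an unadjusted p of 0.05. Of 29 BMP and TGF-beta genes 1 was higher (*Smad1*) and 5 were lower, again against 3.48% and 4.63% of all tested genes. *Id2*, a BMP target, read 6.09, 5.68 and 5.94 at E17.5, against 6.18, 6.29 and 6.70 at E16.5 and 7.53, 6.96 and 6.29 at E18.5 (difference -0.75 ± 0.24, FDR q = 0.52), which is opposite in sign to *Smad1*. The count of higher capillary genes was 1 without E16.5 sample 3 or E17.5 sample 1, 4 without E16.5 sample 1 or 2 and 7 without E18.5 sample 3, and that of lower ones was 2 without E17.5 sample 1 and 1 without E17.5 sample 3, E18.5 sample 1 or E18.5 sample 3. The count of higher arterial and venous genes was 1 without E17.5 sample 2, and that of lower ones was 4 without E18.5 sample 3 and 1 without E16.5 sample 2, E17.5 sample 1 or E17.5 sample 3. Without E17.5 sample 2, 0 BMP and TGF-beta genes were higher and 0 lower. The count of higher ones was 0 without E17.5 sample 3, 2 without E16.5 sample 1 and 3 without E18.5 sample 3, and the count of lower ones was 2 without E16.5 sample 3 or E17.5 sample 3 and 3 without E16.5 sample 2, E18.5 sample 1 or E18.5 sample 2.

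All 36 DNA replication genes and all 33 interferon response genes had E17.5 means between those of E16.5 and E18.5, although the E17.5 samples differed from each other for the interferon genes. The replication list mean was 0.72, 0.66 and 0.77 at E16.5, 0.005, 0.006 and -0.05 at E17.5 and -0.61, -0.98 and -0.52 at E18.5, and its median difference from the flanking days was 0.0008. Of 36 cell cycle and mitosis genes 2 were higher and 1 was lower, against 3.48% and 4.63% of all tested genes, with a median difference of 0.15. The higher ones were *Cenpf*, a kinetochore protein, at 0.46 and *Ccnd1*, cyclin D1, at 0.30, and the lower was *Ccnb1*, cyclin B1, at -0.39. *Cenpf* averaged 6.46 at E16.5, 6.47 at E17.5 and 5.57 at E18.5, and *Ccnd1* averaged 9.0, 9.15 and 8.70. Neither passed an unadjusted p of 0.05 against E16.5. *Cenpf* and *Ccnb1* did not pass it against the flanking days without E17.5 sample 2, nor *Ccnd1* without E17.5 sample 3. *Ccnb1* read 6.49, 6.70 and 6.63 at E16.5, 5.84, 5.36 and 5.55 at E17.5 and 5.53, 5.22 and 5.23 at E18.5, so that most of the difference between E16.5 and E18.5 lay before E17.5.

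The interferon lists placed the E17.5 samples apart from each other. The interferon response mean was -0.68, -0.82 and -0.87 at E16.5, 0.23, -0.49 and 0.08 at E17.5 and 0.85, 0.66 and 1.03 at E18.5. For 12 interferon-inducible GTPases it was -0.85, -0.96 and -1.01 at E16.5, 0.52, -0.86 and 0.13 at E17.5 and 0.71, 1.12 and 1.19 at E18.5. E17.5 sample 2 lay among the E16.5 samples for the GTPases, and the others lay nearer to E18.5. *Gbp4*, a guanylate-binding protein, read 3.24, 3.58 and 3.56 at E16.5, 5.71, 2.78 and 5.50 at E17.5 and 6.10, 7.11 and 6.71 at E18.5. With all samples 2 of 33 interferon response genes were lower and 0 higher than the flanking days, with a median of -0.11, against 4.63% and 3.48% of all tested genes. Without E17.5 sample 2 the counts were 0 lower and 7 higher, with a median of 0.06, against 445 lower and 286 higher of all 14096 tested genes. Without E17.5 sample 1 there were 4 lower interferon response genes, and without E17.5 sample 3 there was 1. *Ifit1* differed, at 3.08, 3.35 and 3.36 at E16.5, 4.32, 3.97 and 4.15 at E17.5 and 6.60, 5.55 and 6.13 at E18.5, with E17.5 sample 2 close to the others. The same sample had the lowest mean of the immediate early genes, at -0.59 against 0.11 and -0.08 in the other E17.5 samples, and the highest mean of the small nucleolar and small nuclear RNA genes, at 0.52 against -0.41 and -0.26. *Fosb*, an immediate early transcription factor, read 7.29 in it, against 9.06 and 8.79 in the other E17.5 samples and 8.70 to 10.23 in the flanking samples.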

How the data were processed

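Total RNA of each sorted pool was hybridised to 1 Mouse Gene 2.0 ST array. The deposited log2 values were made by the authors with RMA (background correction, quantile normalization, gene-level summary) in affy 1.36.1 under R 2.15.1, with probe sets mapped to Entrez Gene. Arrays give no counts, and their number limits the precision. Gene names came from a RefSeq table of GRCm38.p6, and 593 tested genes had no symbol there. Here limma 3.58.1 under R 4.3.3 fitted 3 day means, with eBayes over all genes and Benjamini-Hochberg adjustment over the 14096 tested genes, at an FDR q of 0.05. The larger of both p-values served for peaks and troughs. Gene lists (63, with 3693 members, of which 3678 were matched and 1833 tested) were described by counts and medians, with no test of a list. The comparison, the lists and their members were chosen with earlier results of these data known. Genes were named by a rule: the 10 largest differences and the 5 smallest p-values in each direction among genes with E17.5 outside the flanking range and an unadjusted p under 0.05 and a level above the array medians (116 and 86 genes), leaving out symbols of clones, predicted genes, microRNAs, small nucleolar RNAs and olfactory or vomeronasal receptors, with up to 4 members of each list and 8 sort markers. *Abca1*, *Abcg1*, *Asah1*, *Col15a1*, *Col4a1*, *Col4a2*, *Col4a3*, *Col4a5*, *Dhcr7*, *Fdft1*, *Gbp4*, *Hes1*, *Hmgcs1*, *Hspg2*, *Insig1*, *Jag2*, *Lamb1*, *Nid2*, *Notch1*, *Npc1*, *Sftpc* and *Srebf2* fell outside it and were chosen after their values were seen. The labels give no pairing of samples by replicate number. The fits were tested on simulated data. The alternatives were filters, scalings, moderation, array weights, a replicate block and each sample left out, and the counts of list members with samples left out were added after the data were seen. Some list members are counted but not reported by name here. Promoter sequences were RefSeq's.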

Additional observations from a re-analysis of the deposited data

How the results depend on the processing

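No gene passed an FDR q of 0.05 under any alternative run, and the smallest FDR q ranged over them from 0.0511 (without E17.5 sample 1) to 0.885 (without E17.5 sample 2), with 0.0829 under array quality weights, which gave E17.5 sample 2 a weight of 0.615. At an unadjusted p under 0.05, array quality weights gave 983 higher and 1265 lower genes, 179 peaks and 238 troughs. With no filter there were 905 higher genes, 175 peaks, 378 genes above and 179 below all flanking samples, and with no moderation 63 troughs. With each sample left out in turn there were 286 to 738 higher genes, 411 to 975 lower genes, 47 to 164 peaks and 53 to 204 troughs, and 187 to 589 genes above and 130 to 488 below all flanking samples, where fewer samples have to be cleared. With the replicate number as a block there were 418 higher and 631 lower genes, 73 peaks and 92 troughs. The labels do not say that the numbers pair the samples. Of 9 correlations between same-numbered samples 2 were over 0.1, and 0 samples were closest to their namesakes on both other days. Whether same-numbered samples shared a batch was not tested. Of 81 genes tested by name, 73 had an unadjusted p under 0.05, and 40 of them kept it with each sample left out. Of 1116 list counts with a sample left out, 322 moved by more than 1.5 times or to or from 0. The difference of *Gbp4* changed sign, to 0.17 under array quality weights and to 0.56 without E17.5 sample 2, and it lay between -0.91 and 0.56 over the left-out samples. The causes were not tested. With 3 arrays per day and a median standard error of 0.14, small differences could not be resolved.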
